A study of Homo sapiens with 2 samples.

Results

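CCND1 and CCND3 encode cyclin D1 and cyclin D3, and CDK4 and CDK6 encode the kinases that these cyclins activate. The 4 genes were taken by name from count tables that share 16387 genes, and all 4 were present and passed the filter on low counts. They were followed across 8 conditions of MCF10A, a human breast epithelial cell line that is immortal but forms no tumours and needs EGF to proliferate. Each of 2 pooled libraries is 1 biological replicate, so n = 2 for every condition, and cells of a library were told apart by sample tags. The conditions were EGF with a MEK inhibitor added at 15 h and harvest at 20 h or 30 h, EGF with a PI3K inhibitor added at 15 h and harvest at 20 h or 30 h, EGF alone for 15 h, 20 h or 30 h, and unstimulated cells at 0 h. All cells but those at 0 h had therefore received EGF. The sources used here do not name the inhibitors or their doses, and all values come from 1 cell line.

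D-type cyclins are made when growth factors signal, and they bind CDK4 or CDK6 to form kinases that phosphorylate the retinoblastoma protein RB1. Phosphorylated RB1 releases E2F transcription factors, which switch on genes for entry into S phase. CCND1 is a classical late target of the ERK pathway in epithelial cells, cyclin D1 protein is also stabilised downstream of PI3K and AKT, and INK4 proteins such as that encoded by CDKN2C block CDK4 and CDK6 directly.

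Library 1 held 2616 cells with 33089090 UMIs (unique molecular identifiers, 1 per captured transcript) and library 2 held 2221 cells with 28542571 UMIs. The sums of a condition ran from 213208 UMIs, in the 29 unstimulated cells of library 2, to 8508781 UMIs, in 616 MEK-inhibited cells at 30 h of the same library. The libraries shared 0 cell barcodes, and barcodes with more than 1 tag (56.1% and 40.2% of barcodes in libraries 1 and 2) were already absent from the count tables. Doublets of cells with the same tag remain. All 10 listed markers of basal breast epithelium were present, at a summed 14233 to 31648 CPM (UMI counts scaled to the library total, for all marker sums). Levels of single genes are CPM after TMM, a method that evens out library composition, unless library totals are named. Of the other lists, 3 of 8 fibroblast, 2 of 4 endothelial and 3 of 7 immune markers were in both tables, at sums of 6.96 to 96.3, 0 to 4.88 and 1.51 to 37.5 CPM. The fibroblast sum was highest in unstimulated cells, at 96.3 and 93.8 CPM in libraries 1 and 2, and at 30 h it was 49.0 and 23.7 CPM under MEK inhibition against 13.3 and 9.39 CPM with EGF alone. The immune sum at 30 h was 3.18 and 5.41 CPM under MEK inhibition and 1.51 and 2.37 CPM under PI3K inhibition, against 18.7 and 16.6 CPM with EGF alone. Each of these 2 sums was mostly 1 gene. DCN averaged 99.0 CPM at 0 h, and at 30 h 35.7 CPM under MEK inhibition and 10.2 CPM with EGF alone. CD14 at 30 h averaged 4.42 CPM under MEK inhibition, 1.55 CPM under PI3K inhibition and 16.4 CPM with EGF alone. The part of either list in the comparisons was not tested.

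On GRCh38, with GENCODE v29, CCND1 lies at chr11:69641087-69654474 on the plus strand, CCND3 at chr6:41934933-42050357, CDK4 at chr12:57747727-57756013 and CDK6 at chr7:92604921-92836594, the last 3 on the minus strand. The 3′ end of CDK4 overlaps TSPAN31 on the other strand (chr12:57747727-57750211). CDK4 had 4530 UMIs and TSPAN31 had 829 in all. The sources used here give no strand setting, so how reads of the overlap were assigned is not known. The same holds for the 3′ end of CCND1 (5689 UMIs), which overlaps LTO1, listed as ORAOV1 with 543 UMIs, at chr11:69653076-69654474, for the 5′ end of CDK4 and MARCH9 (518 UMIs), and for the 5′ end of CDK6 (5080 UMIs) and the antisense AC002454.1 (110 UMIs).

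RefSeq promoter windows (GRCh38.p14) were at hand for 3 of the 4 genes, with 6 windows in all, and the 250 bases before the annotated start were read. The windows are given as sequence only, and a link between their motifs and the levels was not tested. Searched on both strands were the E-box CACGTG, the AP-1 site TGANTCA, the CRE TGACGTCA, the FOXO site GTAAACA, the GC box GGGCGG and the ETS core CCGGAAG. No member window held an AP-1, CRE or FOXO match. The CDK4 window at chr12:57752311-57752560 (minus strand) held 3 E-boxes, in capitals, and 3 GC boxes. The E-box is the letters bound by MYC and related factors. Among the 35116 promoters listed there, 6.34% held at least 1 E-box and 42.6% at least 1 GC box.
CDK4: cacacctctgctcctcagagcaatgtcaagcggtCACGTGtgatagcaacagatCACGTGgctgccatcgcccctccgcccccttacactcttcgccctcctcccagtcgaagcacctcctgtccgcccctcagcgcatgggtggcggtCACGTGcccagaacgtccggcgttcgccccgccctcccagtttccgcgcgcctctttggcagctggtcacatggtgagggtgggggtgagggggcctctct
The CDK6 window at chr7:92836574-92836823 (minus strand) held 3 GC boxes, in capitals, and 0 E-boxes. A further CDK6 window held 0 matches to any of the 6 motifs.
CDK6: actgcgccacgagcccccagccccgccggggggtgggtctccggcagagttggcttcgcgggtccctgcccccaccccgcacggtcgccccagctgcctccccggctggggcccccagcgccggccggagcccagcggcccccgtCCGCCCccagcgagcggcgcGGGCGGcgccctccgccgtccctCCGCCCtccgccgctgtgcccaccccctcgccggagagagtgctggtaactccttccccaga
Of 3 CCND3 windows, the one at chr6:41941809-41942058 held 2 GC boxes, in capitals, and 1 ETS match, which 8.52% of promoters hold. The other two held 5 and 0 GC boxes and 0 matches to the other motifs.
CCND3: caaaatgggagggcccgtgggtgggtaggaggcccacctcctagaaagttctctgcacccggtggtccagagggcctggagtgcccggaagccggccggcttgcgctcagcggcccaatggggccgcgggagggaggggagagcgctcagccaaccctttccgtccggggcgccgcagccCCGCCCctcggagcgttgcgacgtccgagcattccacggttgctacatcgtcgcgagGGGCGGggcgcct
A match describes these letters only and is no evidence that a factor binds there.

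CCND1 was low in unstimulated cells, high after 15 h of EGF and lower again as EGF continued. Its level at 0 h was 39.6 CPM in library 1 and 75.1 CPM in library 2. It was 169 and 206 CPM at 15 h of EGF, 129 and 173 CPM at 20 h and 90.5 and 117 CPM at 30 h. The values at 15 h lay above both at 0 h, and those at 15 h and 20 h overlapped between libraries. CCND1 rose by 1.94 on the log2 scale at 15 h against 0 h (SE 0.19, edgeR quasi-likelihood test, adjusted p = 1.9e-11), with 2.08 and 1.45 in libraries 1 and 2. It fell at 30 h against 20 h of EGF (log2 fold change -0.52, SE 0.11, adjusted p = 0.00038), a call that was lost when the fit had no term for the library (-0.53, adjusted p = 0.31). It was also lost in G1-class cells alone, the cells whose S and G2/M marker scores put them in G1 (-0.40, 0.35). At 30 h it was still above 0 h by 1.09 (SE 0.20, adjusted p = 2.0e-05), with 1.18 and 0.63 in libraries 1 and 2. The unstimulated sums rest on 47 and 17 CCND1 UMIs, and unstimulated cells had the lowest median depth, 7975 and 7024 UMIs per cell against 8400 to 16000 in the other sums.

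**Figure D1:**
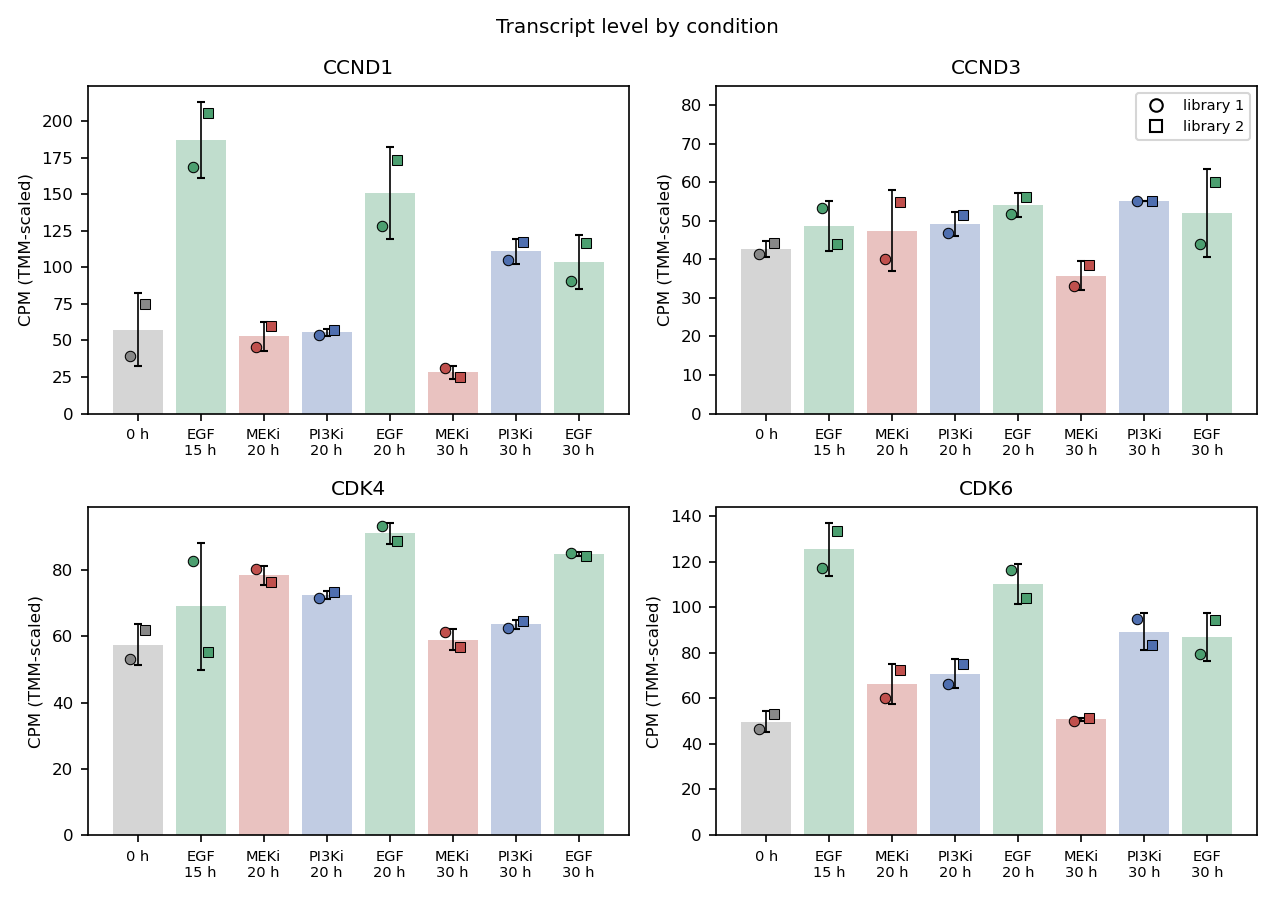
Level of each gene (CPM, TMM-scaled, linear axis from 0) in the 8 conditions. Bars are means of 2 libraries with their SD, circles are library 1 and squares library 2. CCND1 is highest at 15 h of EGF and lowest under MEK inhibition at 30 h, at 31.1 and 25.1 CPM.

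CCND1 was low under each inhibitor 5 h after it was added, and at 30 h the inhibitors parted. At 20 h CCND1 was at 45.8 and 59.8 CPM under MEK inhibition (libraries 1 and 2) and at 54.0 and 57.4 CPM under PI3K inhibition, against 129 and 173 CPM with EGF alone. Neither inhibited range reached that of EGF alone, and the inhibited ranges overlapped each other. CCND1 fell by 1.5 under MEK inhibition (SE 0.12, adjusted p = 3.9e-13) and by 1.40 under PI3K inhibition (SE 0.13, adjusted p = 1.1e-12) on the log2 scale. The inhibitors set against each other gave -0.09 (MEK over PI3K, 95% interval -0.39 to 0.21, adjusted p = 0.72).

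At 30 h CCND1 was at 31.1 and 25.1 CPM under MEK inhibition, at 105 and 117 CPM under PI3K inhibition and at 90.5 and 117 CPM with EGF alone. The values under PI3K inhibition lay within or beside those of EGF alone, while those under MEK inhibition were the lowest of all conditions. Under MEK inhibition CCND1 fell by 1.95 on the log2 scale (SE 0.13, adjusted p = 3.8e-18). Under PI3K inhibition the log2 fold change was 0.10 (95% interval -0.12 to 0.31, adjusted p = 0.51). MEK against PI3K inhibitor at 30 h gave -2.04 (SE 0.13, adjusted p = 1.3e-19). Both inhibitors were compared with the same EGF-alone sums at each time. In such sums, fewer cells with a transcript and fewer transcripts per cell cannot be told apart.

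The PI3K effect on CCND1 itself differed between times, by 1.5 on the log2 scale (30 h minus 20 h, SE 0.17, adjusted p = 6.4e-09). Without the term for the library this difference was 1.53 with adjusted p = 0.062. The MEK effect differed by -0.45 (95% interval -0.81 to -0.09, adjusted p = 0.15), with -0.046 and -0.67 in libraries 1 and 2. Scaling by library totals made this a call (-0.57, adjusted p = 0.048), and in G1-class cells alone it was -0.045 (0.98). From sum to sum under the same inhibitor, CCND1 rose by 0.98 under PI3K inhibition at 30 h against 20 h (SE 0.13, adjusted p = 1.2e-07). Under MEK inhibition it fell by 0.97 over the same time (SE 0.15, adjusted p = 9.3e-07), with -0.55 and -1.23 in libraries 1 and 2. This value was -0.45 in G1-class cells alone and was not called (adjusted p = 0.24). Against unstimulated cells, the MEK-inhibited cells at 30 h were lower in CCND1 by 0.85 (adjusted p = 0.0076), with -0.34 and -1.56 in libraries 1 and 2, a call that was lost without the library term (adjusted p = 0.11). PI3K-inhibited cells at 30 h were above unstimulated cells by 1.19 (adjusted p = 7.1e-06), with 1.39 and 0.64 in libraries 1 and 2.

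CCND3 moved little. Its level was 41.3 and 44.2 CPM at 0 h. It was 53.3 and 44.0 CPM after 15 h of EGF alone, 51.9 and 56.3 CPM after 20 h and 44.1 and 60.2 CPM after 30 h. These ranges overlapped or lay close together, and none of the 4 comparisons among them passed the test. Under MEK inhibition CCND3 was at 40.0 and 54.9 CPM at 20 h and 33.1 and 38.5 CPM at 30 h, and under PI3K inhibition at 46.9 and 51.5 CPM and at 55.2 and 55.1 CPM. The MEK inhibitor at 30 h gave the lowest CCND3 values of all conditions. CCND3 fell there by 0.55 against EGF alone (SE 0.12, adjusted p = 0.00029) and by 0.61 against the PI3K inhibitor (SE 0.12, adjusted p = 4.8e-05). Within MEK inhibition it fell by 0.41 at 30 h against 20 h (adjusted p = 0.024), with -0.27 and -0.51 in libraries 1 and 2, and this missed the threshold with DESeq2 (adjusted p = 0.087), without the library term (0.20) and in G1-class cells alone (-0.0083, 0.99). Neither inhibitor moved CCND3 past the threshold at 20 h (MEK -0.19, 95% interval -0.45 to 0.08, PI3K -0.14, -0.41 to 0.13).

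The split of UMIs between CCND1 and CCND3 therefore changed with CCND1. CCND2, the gene of cyclin D2, is not in these shares, so they are not shares of all D-cyclin transcripts. Its mean was 24.4 CPM at 0 h, 49.1 CPM at 15 h of EGF and 28.1 CPM under MEK inhibition at 30 h. The rise of CCND2 at 15 h was called. CCND1 gave 49.0% and 63.0% of the CCND1 and CCND3 UMIs at 0 h. After EGF it gave 76.0% and 82.4% of them (15 h), 71.3% and 75.5% (20 h) and 67.3% and 66.0% (30 h). At 20 h it gave 53.4% and 52.1% under MEK inhibition and 53.5% and 52.7% under PI3K inhibition. At 30 h it gave 48.4% (95% exact interval 42.2 to 54.7) and 39.5% (35.4 to 43.8) under MEK inhibition and 65.5% and 68.0% under PI3K inhibition. These are shares of UMIs and cover counting error only. They compare conditions, since counts of different genes are not on 1 scale.

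CDK6 followed CCND1 with smaller changes. Its level was 46.4 and 53.0 CPM at 0 h, 117 and 133 CPM at 15 h, 116 and 104 CPM at 20 h and 79.4 and 94.4 CPM at 30 h of EGF alone. Both values at 15 h were more than those at any later time in the same library. CDK6 rose by 1.34 at 15 h against 0 h (SE 0.19, adjusted p = 2.1e-07). It was above 0 h by 0.86 at 30 h (SE 0.19, adjusted p = 0.00037). It fell by 0.35 at 30 h against 20 h of EGF (adjusted p = 0.028), with -0.55 and -0.14 in libraries 1 and 2, and it was not called by DESeq2 (adjusted p = 0.15), without the library term (0.40), with cells thinned to 6500 UMIs each (0.26) or in G1-class cells alone (0.63).

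Under MEK inhibition CDK6 was at 60.2 and 72.4 CPM at 20 h and 50.2 and 51.2 CPM at 30 h. Under PI3K inhibition it was at 66.3 and 75.2 CPM at 20 h and 94.98 and 83.6 CPM at 30 h. At 20 h both lay below EGF alone, and at 30 h only the MEK inhibitor did. CDK6 fell by 0.74 under MEK inhibition at 20 h (SE 0.12, adjusted p = 5.5e-06) and by 0.79 at 30 h (SE 0.11, adjusted p = 8.3e-08). It fell by 0.66 under PI3K inhibition at 20 h (SE 0.12, adjusted p = 2.2e-05), and at 30 h the difference was 0.02 (95% interval -0.19 to 0.23, adjusted p = 0.90). The PI3K effect differed between times by 0.69 (SE 0.16, adjusted p = 0.0036), with 1.06 and 0.29 in libraries 1 and 2 and adjusted p = 0.26 without the library term and 0.15 in G1-class cells alone. MEK against PI3K inhibitor gave -0.08 at 20 h (adjusted p = 0.74) and -0.81 at 30 h (SE 0.11, adjusted p = 2.8e-08). Under the MEK inhibitor CDK6 fell by 0.40 at 30 h against 20 h (adjusted p = 0.015), with -0.26 and -0.50 in libraries 1 and 2, and this was not called by DESeq2 (adjusted p = 0.067), without the library term (0.15), with thinned cells (0.081) or in G1-class cells alone (-0.20, 0.65). Under PI3K inhibition the same comparison gave 0.34 (95% interval 0.10 to 0.58, adjusted p = 0.057).

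CDK4 had another course, with its highest levels at 20 h and 30 h of EGF. It was at 53.1 and 61.8 CPM at 0 h, 82.6 and 55.4 CPM at 15 h, 93.3 and 88.9 CPM at 20 h and 85.2 and 84.4 CPM at 30 h. The libraries parted at 15 h, where library 2 held 64 cells. The call of a rise at 15 h against 0 h (0.50, SE 0.19, adjusted p = 0.042) came with 0.63 in library 1 and -0.16 in library 2, and DESeq2 did not make it (adjusted p = 0.093). At 30 h against 0 h CDK4 rose by 0.66 (SE 0.18, adjusted p = 0.0036).

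Under MEK inhibition CDK4 was at 80.4 and 76.4 CPM at 20 h and 61.3 and 56.8 CPM at 30 h, and under PI3K inhibition at 71.7 and 73.3 CPM and at 62.7 and 64.6 CPM. All 8 inhibited values were below both values of EGF alone at the same time. CDK4 fell at 30 h by 0.53 under MEK inhibition (SE 0.11, adjusted p = 6.0e-05) and by 0.41 under PI3K inhibition (SE 0.11, adjusted p = 0.0016). At 20 h the changes were smaller, -0.22 under MEK inhibition (95% interval -0.44 to 0.01, adjusted p = 0.23) and -0.34 under PI3K inhibition (SE 0.12, adjusted p = 0.027). The inhibitors did not differ past the threshold at 20 h (0.12, 95% interval -0.13 to 0.37) or 30 h (-0.12, -0.34 to 0.10). Without the library term the PI3K calls of CDK4 were lost, with adjusted p = 0.19 at 20 h and 0.052 at 30 h, and the call at 20 h was lost with thinned cells too (0.11). The call at 20 h was lost in G1-class cells alone as well (0.47). Under the MEK inhibitor CDK4 fell by 0.41 at 30 h against 20 h (SE 0.12, adjusted p = 0.0061). That call was lost without the library term (adjusted p = 0.11), with thinned cells (0.054) and in G1-class cells alone (-0.27, 0.39).

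**Figure D2:**
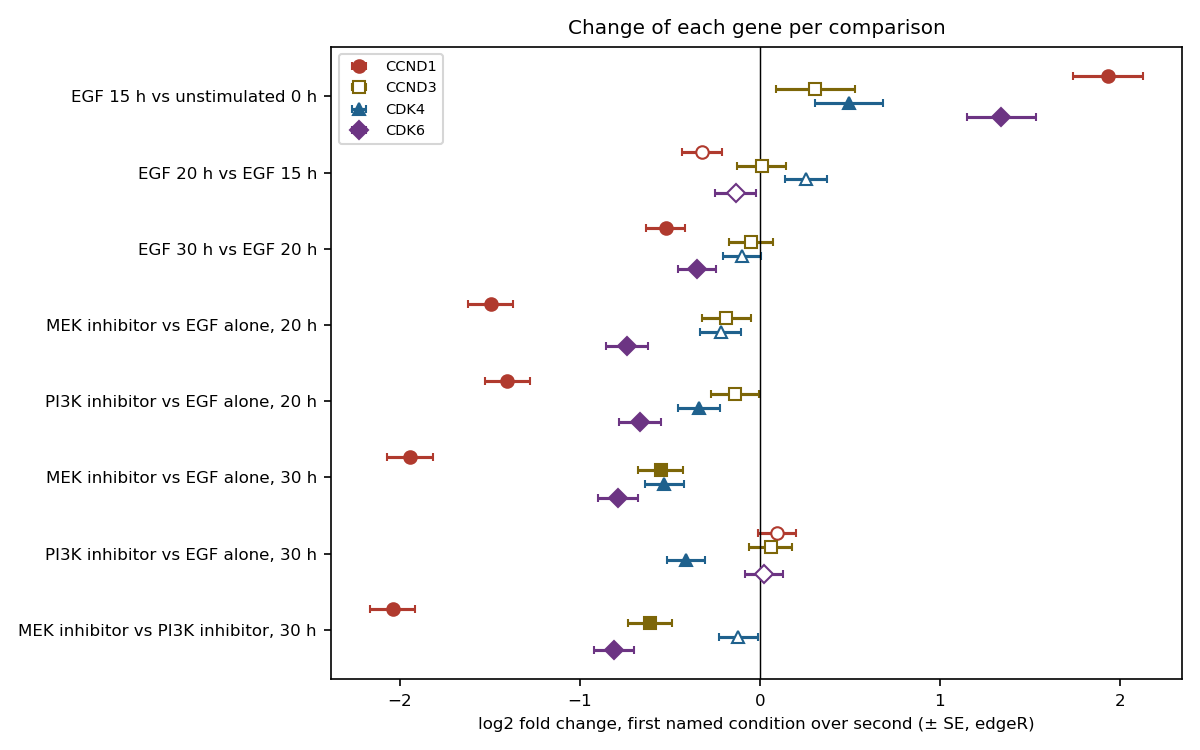
Log2 fold change of each gene with its SE in 8 comparisons, the first named condition over the second (edgeR, 2 libraries a condition). Filled symbols have adjusted p under 0.05 and open ones do not. Under PI3K inhibition at 30 h CCND1, CCND3 and CDK6 sit near 0 and CDK4 at -0.41.

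These counts of calls stand beside the share of all 11147 tested genes called in the same direction. Under MEK inhibition against EGF alone, 2 of the 4 genes were lower at 20 h (7.15% of all genes) and 4 of 4 at 30 h (19.0%). In G1-class cells alone only CCND1 kept its call at 30 h, where 538 of 9256 genes were lower. Under PI3K inhibition 3 were lower at 20 h (11.9%) and 1 at 30 h (20.0%). Between MEK and PI3K inhibitor 0 of the 4 were called in either direction at 20 h, where 21.6% of all genes were, and 3 were lower at 30 h (20.3%). At an unadjusted p under 0.05 the count at 20 h was also 0, and DESeq2 made 0 calls. In EGF alone 3 of the 4 were higher at 15 h against 0 h (14.1%) and 3 at 30 h against 0 h (17.6%). At 20 h against 15 h 0 of 4 were called by edgeR or DESeq2 in either direction (5.10% of all genes), with CCND1 and CDK4 at an unadjusted p under 0.05, and at 30 h against 20 h 2 were lower (3.27%). Within an inhibitor, 4 of 4 were lower at 30 h than at 20 h under MEK inhibition (9.29%) and 1 was higher under PI3K inhibition (5.49%). The count of 4 under MEK inhibition was 1 without the library term (CCND1) and 0 in G1-class cells alone. Lower calls over all genes fell too, to 371 of 11147 without the library term and 332 of 9256 in G1-class cells. Against 0 h, 1 was lower under MEK inhibition at 30 h (8.27%) and 2 were higher under PI3K inhibition at 30 h (10.7%). The MEK effect differed between times for 0 of the 4 by edgeR and DESeq2 (5.58% of all genes in either direction), with CCND1 and CDK4 at an unadjusted p under 0.05. The PI3K effect was higher at 30 h than at 20 h for 2 of the 4 (2.40%), CCND1 and CDK6. Without the library term neither was called, where 5 of all 11147 genes were higher. In G1-class cells alone the call of CDK6 was lost, where 35 of 9256 genes were higher. Scaled by library totals alone, the median of all genes moved to -0.16 under MEK inhibition and -0.22 under PI3K inhibition at 30 h. The calls over all genes were then 1349 higher and 3259 lower under MEK inhibition, against 2103 and 2113 with TMM, and 1268 higher and 3688 lower under PI3K inhibition, against 2201 and 2227.

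Ordered by mean level, CCND1 ran from EGF at 15 h and 20 h, whose ranges overlapped, through the PI3K inhibitor and EGF alone at 30 h, which overlapped too. Below a gap came 0 h, the PI3K inhibitor at 20 h and the MEK inhibitor at 20 h, each overlapping its neighbour, and then the MEK inhibitor at 30 h. CDK6 had the same order except that the MEK inhibitor at 30 h (50.7 CPM ± 0.69) and 0 h (49.7 ± 4.7, SD, n = 2 each) came last and overlapped. CDK4 ran from EGF at 20 h (91.1 ± 3.1) to 0 h (57.5 ± 6.2), and the MEK inhibitor at 30 h (59.0 ± 3.2) overlapped 0 h. CCND3 ran from the PI3K inhibitor at 30 h (55.2 ± 0.051) to the MEK inhibitor at 30 h (35.8 ± 3.8), and only the lowest pair of neighbours did not overlap.

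In single cells CCND1 was found in fewer cells, and in fewer copies per positive cell, under both inhibitors at 20 h and under MEK inhibition at 30 h than with EGF alone. At so few UMIs per cell a lower mean lowers both numbers, so they are not separate results. Cells were thinned to 6500 UMIs each so that depth could not set the shares. At 20 h CCND1 was detected in 26.0% and 29.02% of cells under MEK inhibition, 24.1% and 29.5% under PI3K inhibition and 53.6% and 58.2% with EGF alone (libraries 1 and 2). At 30 h it was detected in 11.9% (95% exact interval 8.60 to 16.03) and 16.5% (13.6 to 19.8) under MEK inhibition, 42.5% and 43.2% under PI3K inhibition, and 38.6% (32.1 to 45.3) and 53.2% (47.6 to 58.8) with EGF alone. The intervals under MEK inhibition lay below those of EGF alone at both times, and at 30 h the PI3K values fell between the 2 libraries of EGF alone. Unthinned, the shares at 30 h were 24.0% and 25.6% under MEK inhibition, 57.7% and 61.7% under PI3K inhibition and 63.3% and 78.5% with EGF alone. Random counting at the same means would give 12.6% and 17.0% of cells under MEK inhibition at 30 h. With EGF alone at 30 h it would give 42.4% and 57.1%. The shares therefore mostly restate the means. The intervals cover counting error only. No cell type that lacks these genes was in the libraries, so the share that free RNA gives was not measured.

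Among cells with CCND1, the mean at 20 h was 1.16 and 1.26 UMIs under MEK inhibition and 1.32 and 1.46 UMIs under PI3K inhibition, against 1.58 and 2.01 UMIs with EGF alone. At 30 h it was 1.13 UMIs in each library under MEK inhibition and 1.41 and 1.53 UMIs under PI3K inhibition, against 1.43 and 1.59 UMIs with EGF alone. Cells with 3 or more CCND1 UMIs made up 0% and 0.176% under MEK inhibition and 3.16% and 5.32% under PI3K inhibition at 30 h, against 2.69% and 6.46% with EGF alone. The highest count was 18 CCND1 UMIs in 1 cell of library 2 at 20 h of EGF. The variance of CCND1 over its mean was 2.75 in that sum and 1.31 in library 1 (a value of 1 is what random counting gives).

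CDK6 was detected in 25.2% and 28.5% of cells under MEK inhibition at 30 h, 37.9% and 40.8% under PI3K inhibition, and 37.7% and 50.8% with EGF alone. CDK4 was detected in 28.6% and 29.5% under MEK inhibition, 28.7% and 32.6% under PI3K inhibition and 43.9% and 44.6% with EGF alone at 30 h. CCND3 was detected in 17.3% and 20.6%, 28.4% and 29.3%, and 29.6% and 37.8% of cells of the same 3 groups. For each of the 4 genes both values under MEK inhibition were below both with EGF alone. Cells with no UMI of any of the 4 were 39.6% and 35.7% under MEK inhibition, 18.4% and 16.9% under PI3K inhibition and 13.5% and 10.2% with EGF alone at 30 h.

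CCND1 and CDK6, whose levels followed each other over the conditions, were found in the same cells about as often as their separate shares would give. Cells with both were 3.77% and 5.62% under MEK inhibition at 30 h, where the product of the shares is 3.01% and 4.70%. With EGF alone at 30 h they were 13.9% and 29.8%, with products of 14.5% and 27.02%. The Pearson r of the 2 genes over thinned cells at 30 h was 0.12 and 0.14 with EGF alone and 0.051 and 0.088 under MEK inhibition. Under PI3K inhibition at 30 h it was -0.056 and 0.049. At 20 h of EGF alone it was -0.075 and -0.026, and at 0 h -0.095 and -0.14. Counts per cell are low, and a weak tie was not tested.

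**Figure D3:**
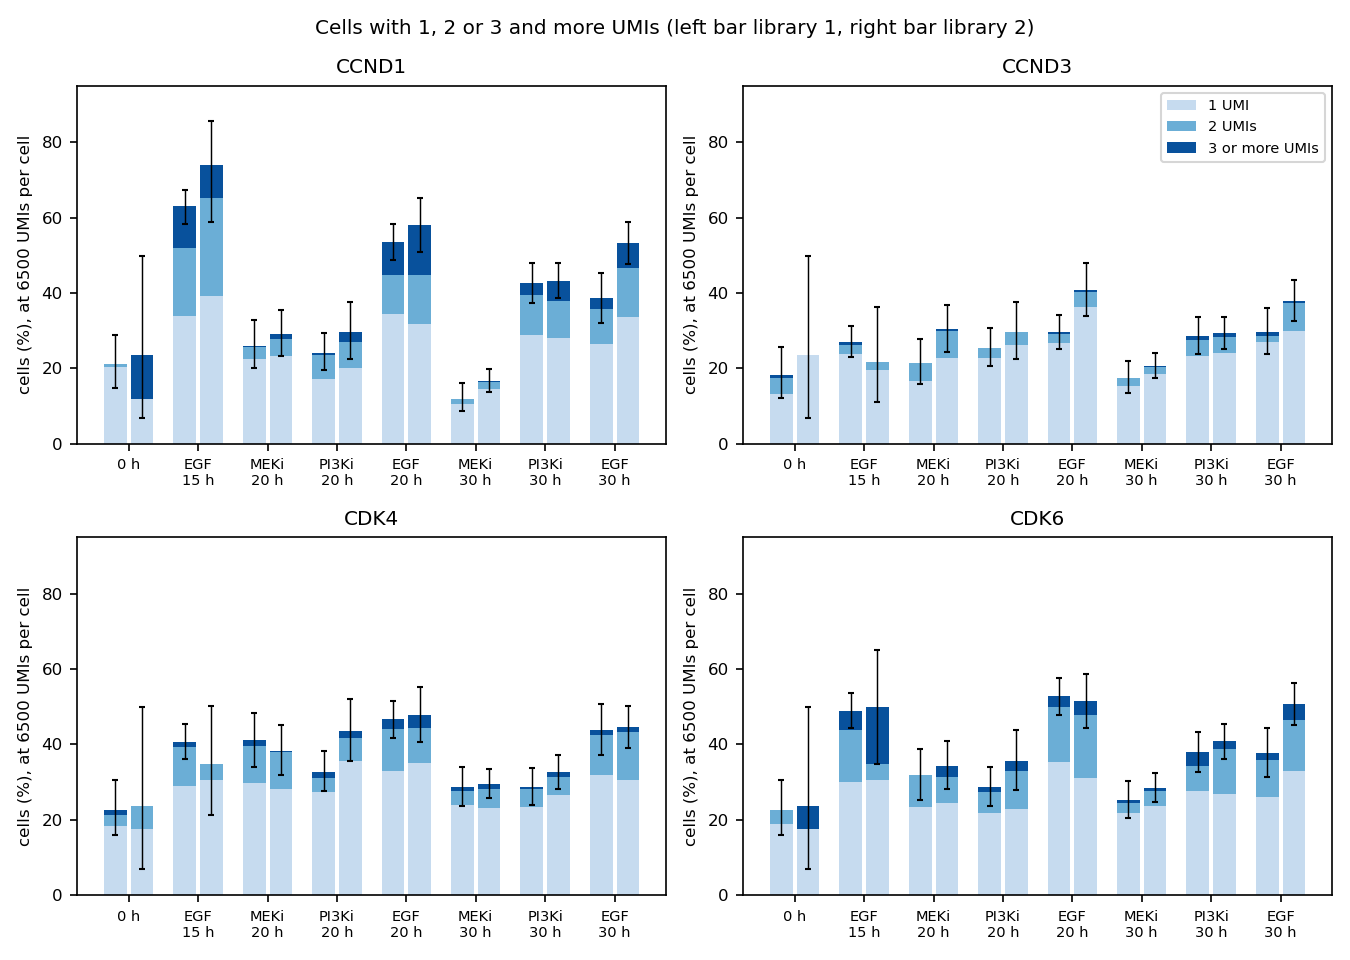
Share of cells (%) with 1, 2 or 3 and more UMIs of each gene after thinning to 6500 UMIs per cell, in each condition, with library 1 as the left bar and library 2 as the right. Error bars are 95% exact intervals of the whole share. CCND1 falls to 11.9% and 16.5% of cells under MEK inhibition at 30 h.

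Cell cycle phase differed between the conditions, so levels were also read within phase classes, which were cut from S and G2/M gene scores that hold none of the 4 genes. A class is a range of a score and not a cell type. At 30 h the G1 class held 64.8% and 32.7% of cells under MEK inhibition, 86.5% and 72.7% under PI3K inhibition and 27.4% and 8.31% with EGF alone. The fall of CCND1 under MEK inhibition was found in every class with at least 20 cells. In the G1 class at 20 h CCND1 was at 43.4 and 48.3 CPM under MEK inhibition and 51.2 and 68.1 CPM under PI3K inhibition, against 161 and 268 CPM with EGF alone (CPM on library totals). In the S class at 20 h it was at 53.4 and 74.8 CPM under MEK inhibition and 48.0 and 40.6 CPM under PI3K inhibition, against 116 and 161 CPM with EGF alone. In the G2/M class at 30 h it was at 28.5 and 21.9 CPM under MEK inhibition and 89.3 and 110 CPM under PI3K inhibition, against 83.9 and 129 CPM with EGF alone. The MEK-inhibited values lay below those of EGF alone in each of these classes.

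A fit on sums of G1-class cells alone, added after seeing the data, gave CCND1 log2 fold changes of -2.08 (MEK) and -1.69 (PI3K) at 20 h and -2.13 (MEK) at 30 h, all called. Under PI3K inhibition at 30 h it gave -0.41 (adjusted p = 0.090), where all cells gave 0.10. In the G1 class at 30 h CCND1 was at 94.4 and 117 CPM under PI3K inhibition and at 97.3 and 230 CPM with EGF alone, the last from 27 cells. In the same fit CDK6 was called at 20 h with either inhibitor (-0.76 and -0.57) and was at -0.59 under MEK inhibition at 30 h (adjusted p = 0.11). CCND3 was at 0.012 under MEK inhibition at 30 h (adjusted p = 0.98), where all cells gave -0.55. CDK4 was at -0.42 under MEK inhibition (adjusted p = 0.17) and -0.34 under PI3K inhibition (0.26) at 30 h. In the G2/M class at 30 h CCND3 was at 23.4 and 35.5 CPM under MEK inhibition against 46.0 and 72.1 CPM with EGF alone. In the G1 class it was at 33.2 and 44.1 CPM against 39.7 and 45.0 CPM, the last pair from 31 and 18 CCND3 UMIs. The S class held 4 and 1 cells under MEK inhibition and was not read. The part of each class in the fall over all cells was not tested.

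CDK4 was the gene that differed most regularly between classes. Within a library and condition its level in the S class was above that in the G1 class in 9 of 9 pairs, with a median log2 difference of 0.59 (0.29 to 1.07). In the G2/M class it was above G1 in 10 of 10 pairs, with a median of 0.53 (0.20 to 0.87). At 30 h of EGF alone CDK4 was at 127 and 125 CPM in the S class and 60.2 and 82.6 CPM in the G1 class. CCND1 was higher in S than in G1 in 3 of 9 pairs (median -0.092), CCND3 in 5 of 9 (0.14) and CDK6 in 7 of 9 (0.28). In G2/M against G1, CCND1 was higher in 2 of 10 pairs (median -0.16), CCND3 in 6 of 10 (0.047) and CDK6 in 7 of 10 (0.13). CCND1 was thus mostly lower in G2/M than in G1. The pairs of a library share its cells, so these are counts with no test.

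**Figure D4:**
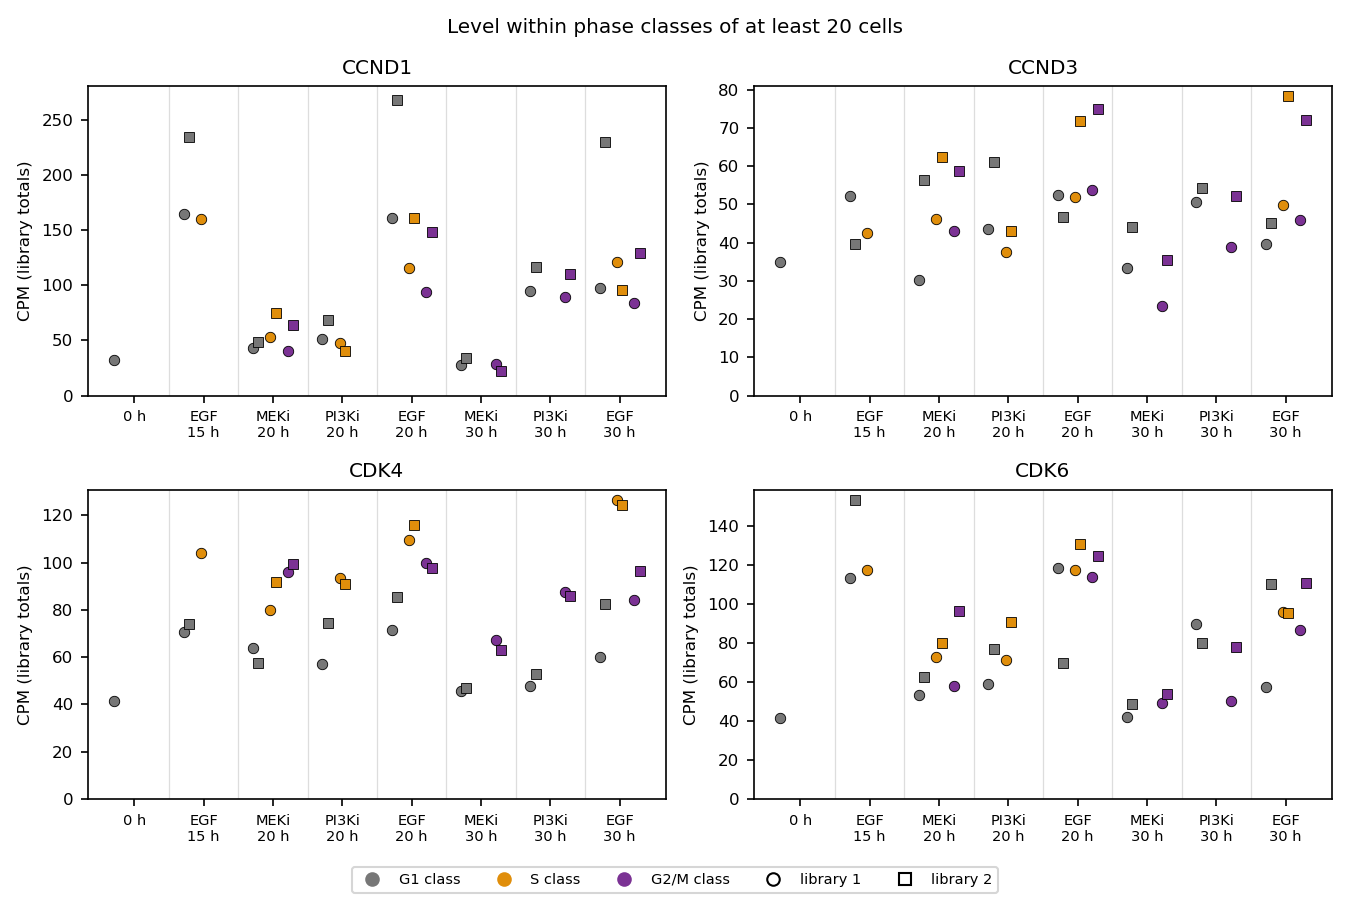
Level of each gene (CPM on library totals) in the G1, S and G2/M classes of each condition, with library 1 as circles and library 2 as squares. Classes under 20 cells are left out. CDK4 is higher in the S class than in the G1 class in 9 of 9 pairs.

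Partners and inhibitors of these kinases changed in several directions. The pathway list held 36 other genes, of which 34 were in both tables and tested, and CDKN2A and CDKN2B were not used here. Under MEK inhibition at 20 h 3 of the 34 were higher and 5 lower (4.80% and 7.15% of all genes), with a list median of -0.048 against 0.013 over all genes. Under PI3K inhibition at 20 h 4 were higher and 9 lower (11.4% and 11.9%), with medians of -0.19 and 0.0045. At 30 h 4 were higher and 12 lower under MEK inhibition (18.9% and 19.0%, medians -0.26 and 0.014). Under PI3K inhibition at 30 h 3 were higher and 13 lower (19.7% and 20.0%, medians -0.27 and 0.012). In G1-class cells alone, with 30 of the list tested, the counts fell to 2 higher and 2 lower under MEK inhibition and 1 higher and 2 lower under PI3K inhibition at 30 h. The calls over all genes fell in that fit too. Of 9256 genes tested, 650 were higher and 538 lower under MEK inhibition, and 595 and 630 under PI3K inhibition, at 30 h. Without the library term the MEK inhibitor gave 2 higher and 0 lower of the list at 20 h, and the PI3K inhibitor 3 higher and 6 lower. Of all 11147 genes, 92 were then higher and 250 lower under MEK inhibition, and 379 and 461 under PI3K inhibition.

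CCND2, which encodes cyclin D2, was at 29.9 and 34.4 CPM under MEK inhibition and 25.9 and 27.7 CPM under PI3K inhibition at 20 h, against 45.8 and 47.0 CPM with EGF alone. It fell by 0.52 (SE 0.14, adjusted p = 0.0094) and by 0.80 (SE 0.15, adjusted p = 5.7e-05), and by 0.38 under MEK inhibition at 30 h (SE 0.13, adjusted p = 0.018). The last of these came with -0.21 and -0.48 in libraries 1 and 2, and DESeq2 did not call it (adjusted p = 0.084). Without the library term both MEK calls of CCND2 were lost (adjusted p = 0.080 at 20 h and 0.096 at 30 h), and so they were with thinned cells (0.12 and 0.066). The one at 20 h was also lost in G1-class cells alone (0.17). CDKN1C encodes p57, which inhibits cyclin-CDK complexes. It was at 184 and 207 CPM under MEK inhibition and 23.6 and 20.7 CPM under PI3K inhibition at 30 h, against 10.8 and 6.76 CPM with EGF alone. It rose by 4.54 (SE 0.16, adjusted p = 7.7e-29) and by 1.38 (SE 0.21, adjusted p = 6.2e-07), and at 20 h by 3.40 under MEK and 1.61 under PI3K inhibition. The PI3K value of CDKN1C at 30 h in G1-class cells alone was 0.57 and was not called (adjusted p = 0.36).

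CDKN2C, which encodes the INK4 inhibitor p18, moved in opposite directions with the 2 inhibitors. It was at 41.7 and 54.0 CPM under MEK inhibition and 4.48 and 5.69 CPM under PI3K inhibition at 30 h, against 18.5 and 19.8 CPM with EGF alone. It rose by 1.34 under MEK inhibition (SE 0.14, adjusted p = 1.6e-11) and fell by 1.89 under PI3K inhibition (SE 0.21, adjusted p = 1.7e-10), and MEK against PI3K inhibitor gave 3.23 (SE 0.17, adjusted p = 1.1e-21). At 20 h it rose by 1.10 under MEK inhibition and fell by 0.95 under PI3K inhibition. In G1-class cells alone the PI3K values of CDKN2C were not called, at -0.22 (adjusted p = 0.83) at 20 h and 0.11 (0.95) at 30 h. With thinned cells neither call of CDKN2C at 20 h was kept (adjusted p = 0.067 under MEK and 0.14 under PI3K inhibition). CDKN2D, which encodes p19, was at 34.0 and 38.1 CPM under PI3K inhibition at 20 h, against 17.5 and 18.2 CPM with EGF alone. At 30 h it was at 53.5 and 62.7 CPM under MEK inhibition and 22.4 and 26.7 CPM under PI3K inhibition, against 35.1 and 36.7 CPM with EGF alone. CDKN2D rose by 1.00 under PI3K inhibition at 20 h (SE 0.17, adjusted p = 1.1e-05) and fell by 0.54 at 30 h (SE 0.14, adjusted p = 0.0018), and the 30 h minus 20 h difference was -1.53 (SE 0.22, adjusted p = 2.3e-06). Under MEK inhibition it rose by 0.70 at 30 h (SE 0.12, adjusted p = 5.9e-06). The PI3K call of CDKN2D at 30 h was lost without the library term (adjusted p = 0.059), and in G1-class cells alone neither 30 h value was called (0.45 under MEK and 0.81 under PI3K inhibition). CDKN1B, which encodes p27, fell by 0.56 under PI3K inhibition at 30 h (SE 0.21, adjusted p = 0.030), a call that DESeq2 did not make (0.13) and that was lost without the library term and in G1-class cells alone (0.21, adjusted p = 0.84).

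Of 9 genes of the RB family and E2F, 0 were higher in any of the 4 comparisons by edgeR or DESeq2, or at an unadjusted p under 0.05. Under MEK inhibition 3 were lower at 20 h and 5 at 30 h, where 7.15% and 19.0% of all genes were, and under PI3K inhibition 4 at 20 h and 5 at 30 h, where 11.9% and 20.0% were. Without the library term the counts were 0 and 5 under MEK inhibition and 2 and 5 under PI3K inhibition. Of all 11147 genes, 250 and 1141 were then lower under MEK inhibition, and 461 and 1278 under PI3K inhibition. In G1-class cells alone, with 8 of the 9 tested, the counts were 0 and 1 under MEK inhibition and 1 and 0 under PI3K inhibition. Of all 9256 genes in that fit, 343 and 538 were lower under MEK inhibition, and 647 and 630 under PI3K inhibition. RB1 was at 37.8 ± 2.0 CPM under MEK inhibition and 34.9 ± 2.7 CPM under PI3K inhibition, against 39.5 ± 4.4 CPM with EGF alone at 30 h (SD, n = 2 each), with adjusted p above the threshold. E2F1, an activator of S phase genes, was at 4.27 and 3.59 CPM under MEK inhibition and 4.97 and 3.74 CPM under PI3K inhibition, against 14.2 and 8.96 CPM with EGF alone at 30 h. It fell by 1.53 (SE 0.26, adjusted p = 2.9e-06) and by 1.38 (SE 0.26, adjusted p = 2.4e-05). RBL1, which encodes the RB relative p107, fell by 0.82 under PI3K inhibition at 20 h (SE 0.22, adjusted p = 0.0034), with -0.44 and -1.30 in libraries 1 and 2, and by 1.35 at 30 h (SE 0.22, adjusted p = 1.4e-06). E2F5, a repressive member of the E2F family, averaged 1.27 ± 0.95 CPM under MEK inhibition against 4.89 ± 0.58 CPM with EGF alone at 20 h, and 3.55 ± 0.053 against 10.6 ± 4.2 CPM at 30 h (SD, n = 2 each). It fell by 2.10 at 20 h (SE 0.53, adjusted p = 0.0045), with -1.24 and -2.15 in libraries 1 and 2, and by 1.64 at 30 h (SE 0.28, adjusted p = 5.3e-06), with -1.02 and -1.77. E2F3 fell under MEK inhibition by 0.85 at 20 h (adjusted p = 0.037), with -0.95 and -0.50 in libraries 1 and 2. E2F2 fell under PI3K inhibition by 2.04 at 20 h (adjusted p = 0.0088), with means of 1.16 CPM against 4.72 CPM with EGF alone, and DESeq2 gave it no adjusted p. In G1-class cells alone the calls of E2F3 and E2F5 under MEK inhibition, of RBL1 under PI3K inhibition and of E2F1 under PI3K inhibition were lost.

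The remaining groups of the list held few genes, and their counts are read beside the shares of all genes given for the whole list. Of 5 genes that activate or assemble the kinases, 0 were called at 20 h with either inhibitor by edgeR or DESeq2, and 0 had an unadjusted p under 0.05. At 30 h 3 of them were lower under MEK inhibition, the CDK-activating cyclin CCNH and the chaperones HSP90AB1 and CDC37, and under PI3K inhibition 1 was higher (CDK7) and 1 lower (CCNH). Of 9 genes for the turnover of D cyclins, 0 were called under MEK inhibition at 20 h by edgeR or DESeq2 (1 had an unadjusted p under 0.05), and 1 was higher in each of the other comparisons (FBXO31, USP2 and CUL4B), where 11.4% to 19.7% of all genes were higher. USP2 was scarcely detected, with means of 2.26 CPM under MEK inhibition and 0.085 CPM with EGF alone at 30 h. Of 5 later G1/S genes, 1 was lower under MEK inhibition at 20 h (CCNE1) and 3 at 30 h (CDC25A, CCNE1 and CCNE2), and 3 were lower under PI3K inhibition at 20 h and 4 at 30 h. These genes are named for small counts and were chosen after their values were seen.

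**Figure D5:**
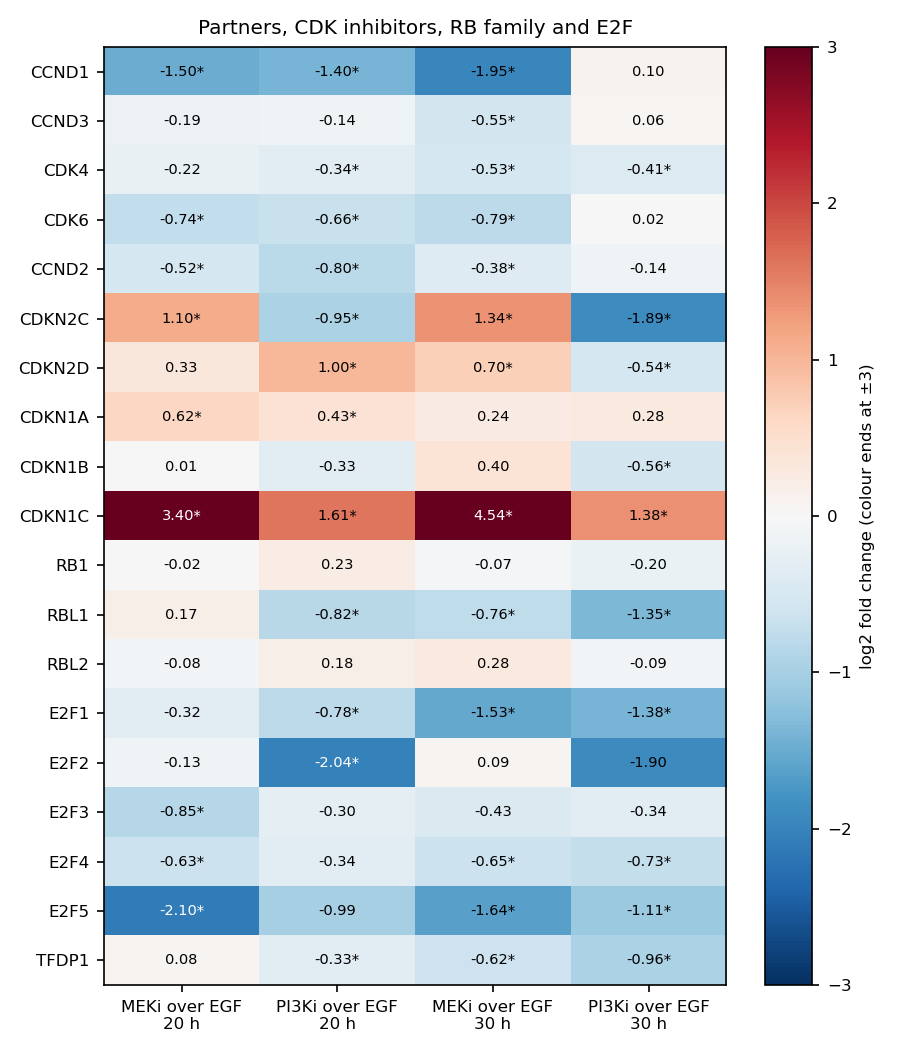
Log2 fold change of the 4 genes, CCND2, CDK inhibitors, the RB family and E2F with each inhibitor over EGF alone. Columns are the MEK and PI3K inhibitor at 20 h and 30 h, an asterisk marks adjusted p under 0.05 (edgeR), and colours end at 3 in either direction. CDKN1C is the most raised, at 4.54 under MEK inhibition at 30 h.

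Among the 4727 genes that averaged 20 CPM or more on library totals, patterns were compared by Pearson correlation over 8 conditions. The patterns most like each member were taken by the lower of the 2 libraries' values. They describe these sums, which share depth and phase, and carry no test. For CCND1 these were PUS7 (0.97), UTP6 (0.95), ALKBH2 (0.95) and CD3EAP (0.94). CDK6 was the 16th most like CCND1 (0.89). For CDK6 they were JMJD4 (0.95), SRFBP1 (0.94), DIS3 (0.94) and MYCBP2 (0.94). For CDK4 they were ETF1 (0.93), IER3IP1 (0.93), GMNN (0.92), which encodes the replication inhibitor geminin and is itself one of the S phase score genes, and CACYBP (0.91). For CCND3, whose levels varied least, they were TMA16 (0.89), PDCD5 (0.88), CERS2 (0.87) and PPM1G (0.87).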

How the data were processed

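Transcripts of single MCF10A cells were measured in 2 pooled libraries. The authors deposited whole-number UMI counts for each gene symbol in each cell, and both tables hold whole numbers only, with no normalisation. The submitters' processing notes name Cell Ranger 3.0.2, Seurat and GRCh38. The sources used here do not give the annotation release, strand setting, cell filter or rule for tag calls. Deposited cells held 1502 to 4496 genes in library 1 and 1502 to 4492 in library 2. Their mitochondrial share of UMIs reached 9.96% and 9.997%. What such limits did to the deepest conditions was not tested. Conditions came from the deposited tag annotation, and every deposited cell had 1 tag.

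Counts of the 16387 shared genes were summed into 16 sums, 1 per library and condition, and tested in R 4.3.3 by the quasi-likelihood F test of edgeR 4.0.16, after filterByExpr and TMM, with the library as a block. Adjusted p is Benjamini-Hochberg over 11147 genes, with a threshold of 0.05, and SE is the log2 fold change over the root of F. The fit had 7 residual degrees of freedom and a biological coefficient of variation of 0.060. Tests and 95% intervals of the 4 genes used 50.3 degrees of freedom, of which 43.3 were borrowed from the spread of all tested genes. For the log2 values of single libraries the prior count was 2. The library pairs the sums by design: deviations from condition means correlated between conditions with a median r of 0.589 (0.285 to 0.675, 28 pairs, 4727 genes). The script was tested on simulated data. Shares of cells and levels in phase classes were described per library and not tested.

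Shares of cells used cells thinned to 6500 UMIs, with shallower cells left out. Phase classes came from scanpy 1.11.5 scores, and classes under 20 cells were not read. The members and gene lists were chosen with earlier results of these data known, so lists carry no test of their own. Named pathway genes were the called CDK inhibitors and partners, and RB family and E2F genes, with the largest change, up to 2 each way per inhibitor comparison. RB1 was added for its role. Alternatives were DESeq2 1.42.0, library totals, no low-count filter, no library block, thinned cells, leaving out the deepest 5% of cells, the early sums or a library and, chosen after seeing the data, G1-class cells only.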

Additional observations from a re-analysis of the deposited data

Results flagged for a closer look

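The effect of the PI3K inhibitor on CCND1 differed between harvest times. The log2 fold change against EGF alone was -1.40 at 20 h and 0.10 at 30 h, and the difference of 1.5 (SE 0.17) had adjusted p = 6.4e-09 by edgeR, with 1.46 and 1.59 in libraries 1 and 2. The same was found for CDK6, with -0.66 at 20 h, 0.02 at 30 h and a difference of 0.69 (SE 0.16, adjusted p = 0.0036), with 1.06 and 0.29 in libraries 1 and 2. Beside these stand the shares of G1-class cells, which at 30 h were 86.5% and 72.7% with the PI3K inhibitor and 27.4% and 8.31% with EGF alone. Their part in the difference was not tested. With 2 libraries a condition, no group was large enough to look for a library that stands apart.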

How the results depend on the processing

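Of 472 refitted log2 fold changes, 424 kept their direction and their side of the threshold, 32 lost the call, 3 gained one and 13 changed direction. Without a filter on low counts all 64 were unchanged in call. The cause of the changes was not tested.

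The numbers pair the sums by library. With no replicate block, calls were lost for CCND1 at 30 h against 20 h of EGF (-0.53), for the MEK inhibitor at 30 h against 0 h (-0.79) and for its PI3K difference between times (1.53). They were lost for CCND3 with the MEK inhibitor at 30 h against 20 h (-0.41), for CDK4 at 15 h of EGF (0.41), with the PI3K inhibitor at 20 h (-0.33) and 30 h (-0.41) and with the MEK inhibitor at 30 h against 20 h (-0.41), and for CDK6 at 30 h of EGF against 20 h (-0.34), with the MEK inhibitor at 30 h against 20 h (-0.39) and for its PI3K difference (0.68). The block changed no other call.

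Thinning lost CDK4 at 15 h (0.59), with the PI3K inhibitor at 20 h (-0.34) and the MEK inhibitor at 30 h against 20 h (-0.41), and CDK6 at 30 h of EGF against 20 h (-0.29) and the MEK inhibitor at 30 h against 20 h (-0.40). It turned 2 uncalled values, CCND3 at 30 h of EGF against 20 h (0.032) and CDK6 with the MEK inhibitor at 30 h against 0 h (-0.015). DESeq2 lost CDK4 at 15 h (0.47), CDK6 at 30 h of EGF against 20 h (-0.35), and CCND3 (-0.41) and CDK6 (-0.39) with the MEK inhibitor at 30 h against 20 h. Without the deepest 5% of cells CDK4 at 15 h was lost (0.48). Without the 0 h and 15 h sums CDK6 with the PI3K inhibitor at 30 h against 20 h was called (0.33).

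Library totals turned uncalled values with the PI3K inhibitor at 30 h for CCND1 (-0.14), CCND3 (-0.18) and CDK6 (-0.21), and between MEK and PI3K inhibitor at 20 h for CCND3 (0.039) and CDK6 (0.013). They added calls for the MEK difference of CCND1 between times (-0.57) and for CCND3 at 30 h of EGF against 0 h (0.53).

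In G1-class cells only, values turned for CCND1 with the PI3K inhibitor at 30 h (-0.41), for CCND3 with the PI3K inhibitor at 20 h (0.038), the MEK inhibitor at 30 h (0.012) and its MEK difference (0.24), for CDK4 between inhibitors at 20 h (-0.074) and for the MEK difference of CDK6 (0.17). Calls were lost at 30 h against 20 h of EGF for CCND1 (-0.40) and CDK6 (-0.37), with the MEK inhibitor at 30 h against 20 h for CCND1 (-0.45), CCND3 (-0.0083), CDK4 (-0.27) and CDK6 (-0.20), for CDK4 with the PI3K inhibitor at 20 h (-0.19) and 30 h (-0.34) and the MEK inhibitor at 30 h (-0.42), and for CDK6 with the MEK inhibitor at 30 h (-0.59) and its PI3K difference (0.83).

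Single libraries ranged, at 15 h of EGF against 0 h, between 1.45 and 2.08 for CCND1, -0.0049 and 0.36 for CCND3, -0.16 and 0.63 for CDK4, and within 1.32 and 1.33 for CDK6. At 20 h against 15 h they ranged between -0.039 and 0.35 for CCND3 and 0.17 and 0.68 for CDK4, and at 30 h against 0 h between 0.63 and 1.18 for CCND1, 0.45 and 0.68 for CDK4 and 0.77 and 0.83 for CDK6. With the PI3K inhibitor at 30 h against 0 h they ranged between 0.64 and 1.39 for CCND1, 0.32 and 0.41 for CCND3 and 0.062 and 0.24 for CDK4. With the MEK inhibitor at 30 h against 0 h they ranged between -0.31 and -0.20 for CCND3, -0.12 and 0.20 for CDK4 and -0.049 and 0.11 for CDK6. Uncalled CDK4 values ranged between -0.22 and -0.21 with the MEK inhibitor at 20 h, -0.19 and -0.18 with the PI3K inhibitor at 30 h against 20 h and -0.11 and -0.063 for its PI3K difference, and CDK6 between inhibitors at 20 h between -0.14 and -0.055.

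Of 128 shares of cells at other depths 106 left the interval of the share at 6500 UMIs, and of 168 phase class differences 57 moved by more than the libraries' SD when classes were cut from list shares. Depth limits the 0 h sums most, with 10 to 63 UMIs of each of the 4 genes.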
